A study of Mus musculus with 10 samples.

Results

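Desmosomes are the spot-like junctions that hold epithelial cells together, and the RNA of 10 genes that encode them was examined here in mouse forelimb-bud ectoderm. The genes were taken by their symbols from the row names of a count table of 55401 genes: Pkp1, Pkp2, Pkp3, Pkp4, Dsp, Jup, Dsc2, Dsc3, Dsg2 and Perp. Each symbol had 1 row, and all 10 were among the 19126 genes whose counts were high enough to be tested. The libraries came from embryos at embryonic stage E9.75. A set of 3 were named DKO 17, DKO 40 and DKO 41. They came from embryos labelled DKO, a double knockout of Sp8 and Sp6, which encode zinc finger transcription factors. The other 3, named WT 32, WT 53 and WT 56, came from wild-type (WT) littermates. Each replicate held the peeled ectoderm of about 2 forelimb buds, the sources used here give neither the alleles nor the strain, and libraries of E10.5 ectoderm were not analysed here.

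In a desmosome, cadherins of the desmoglein (Dsg) and desmocollin (Dsc) families cross the cell membrane and bind those of the neighbouring cell. Their tails carry armadillo-repeat proteins, plakoglobin (Jup) and the plakophilins (Pkp), and desmoplakin (Dsp) ties this plaque to the keratin filaments. Perp is a tetraspan membrane protein needed for desmosomes in stratified epithelia and a known target of p63, the transcription factor that stratified epithelia depend on. Early surface ectoderm is a simple epithelium that later stratifies, and the 2 kinds of epithelium are known to use different members of these families.

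Library totals ranged from 64432348 to 87040786 counts. Levels are CPM values, counts scaled to a common library size by TMM, and means are given with the SD of the 3 libraries in that group. A gene was called where the edgeR quasi-likelihood test gave an adjusted p under 0.05 across all tested genes, and log2 fold changes are DKO minus WT. Sp8 had 5.86, 2.38 and 2.80 CPM in DKO 17, DKO 40 and DKO 41, against 34.1, 43.2 and 31.3 CPM in WT 32, WT 53 and WT 56 (edgeR adjusted p = 0.000806). Sp6 had 133, 13.9 and 76.9 CPM in the same DKO libraries, against 228, 312 and 320 CPM in the WT libraries, and was not called (edgeR adjusted p = 0.207). Exons of Sp6 overlap the opposite-strand gene Gm11532 by 3329 bases, which the library chemistry cannot separate. The 12 markers of ectoderm had counts in all 6 libraries, with a summed level of 2725 to 3568 CPM in DKO and 3873 to 4285 CPM in WT. The summed level of 12 limb mesenchyme markers was 876 to 1486 CPM in DKO and 594 to 679 CPM in WT. That of 15 markers of the apical ectodermal ridge, the thickened rim of the limb ectoderm, was 370 to 612 CPM in DKO and 2319 to 2817 CPM in WT. Msx1 was the largest part of the mesenchyme sum in each library, at 536 to 1184 CPM in DKO and 282 to 498 CPM in WT. Whether these shifts take part in the results for the desmosome genes was not tested.

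Of the 10 desmosome genes, 4 fell in DKO and 0 rose. These were the plakophilin Pkp1, the desmocollins Dsc3 and Dsc2, and Perp. Among all tested genes, 2.81% were called lower and 1.70% higher. The plaque genes Jup, Pkp2, Pkp3, Pkp4 and Dsp and the desmoglein Dsg2 were not called. The median log2 fold change of the 10 genes was -0.62, beside 0.03 over all tested genes, and 8 of the 10 values were negative, as were 46.9% of all tested genes. In 5 of the 10 every DKO library lay below every WT library, and in 0 every DKO library lay above, where 11.3% and 10.6% of all tested genes did so. Fewer cells of a type and less RNA in each of them cannot be told apart in bulk tissue. Pkp1 was the 1 gene of the 10 called whichever library was left out, and the number called lower was then between 1 and 4. It was 1 without DKO 17, DKO 40, WT 32 or WT 56, 3 without WT 53 (Pkp1, Dsp and Dsc2) and 4 without DKO 41, while 0.969% to 2.97% of all tested genes were called lower in these fits. Without both DKO 41, which held the most erythroid transcript, and WT 32, Pkp1 and Perp were called. WT 32 had the highest level of the mesenchyme gene Prrx1, 29.0 CPM, beside 23.3 CPM in DKO 40. The mesenchyme markers Tbx5, Col3a1 and Fgf10 were also highest in WT 32, whereas Prrx2, Twist1, Twist2 and Hand2 were highest in DKO 40. Pdgfra was highest in WT 56, Col1a1 in WT 53, Msx1 in DKO 17 and Meis2 in DKO 41. WT 32 had the lowest summed mesenchyme markers of the 6 libraries, but also the lowest Msx1, 282 CPM. Over the 6 libraries these sums stood in the same order as Msx1, and the other mesenchyme markers were not summed alone.

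**Figure D1:**
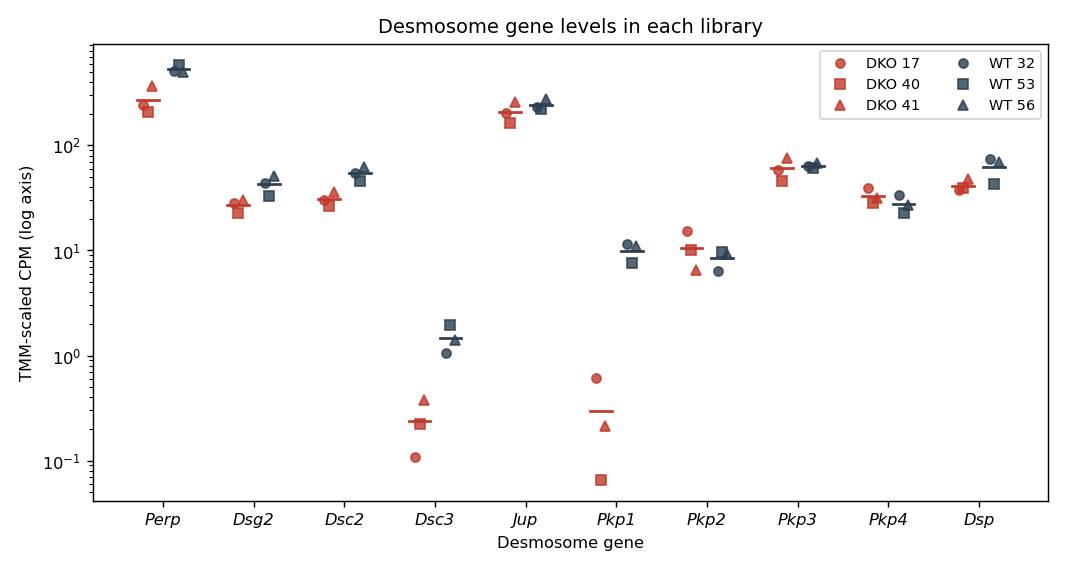
TMM-scaled CPM of the 10 desmosome genes on a log axis, with DKO libraries in red to the left of WT libraries in dark blue; each point is 1 library and each line a group mean. The groups lie furthest apart for Pkp1 (means of 0.297 CPM in DKO and 9.98 CPM in WT) and Dsc3, and the points of Jup, Pkp2, Pkp3, Pkp4 and Dsp overlap.

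Among the cadherins, Dsc2 and Dsg2 were the main desmocollin and desmoglein of this tissue; both are the widespread forms that simple epithelia use. Dsc2 (ENSMUSG00000024331.11, GRCm38 chromosome 18, 20030633 to 20059554) had 30.0, 26.2 and 35.7 CPM in DKO 17, DKO 40 and DKO 41. It had 55.2, 45.4 and 61.8 CPM in WT 32, WT 53 and WT 56. The groups did not overlap, and Dsc2 fell 1.77-fold (log2 fold change -0.82, SE 0.172; edgeR adjusted p = 0.0312). That call was lost without DKO 17, DKO 40, WT 32 or WT 56 (adjusted p up to 0.146).

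Dsg2 (ENSMUSG00000044393.15, chromosome 18, 20558074 to 20604521) had 28.3, 22.7 and 30.3 CPM in the DKO libraries, against 43.5, 32.7 and 51.3 CPM in the WT libraries. All DKO values lay below all WT values, with WT 53 only slightly above DKO 41. The log2 fold change of -0.65 (SE 0.197) was not called (edgeR adjusted p = 0.107). DESeq2's Wald test called it (adjusted p = 0.0442). Exons of Dsg2 overlap the antisense gene Gm16090 by 330 bases.

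Dsc3, the desmocollin of the basal layers of stratified epithelia, had the lowest mean level per length of the 10 genes in both groups, although in DKO 40 and DKO 41 Pkp1 lay below it. Dsc3 (ENSMUSG00000059898.9, chromosome 18, 19960930 to 20002351) had 9, 17 and 34 counts in DKO 17, DKO 40 and DKO 41, or 0.108, 0.222 and 0.381 CPM. It had 92, 123 and 124 counts in WT 32, WT 53 and WT 56, or 1.06, 1.94 and 1.42 CPM. The 95% Poisson interval of the highest DKO library was 23.5 to 47.5 counts and that of the lowest WT library 74.2 to 112.8 counts, which covers counting error only. Dsc3 fell 6.22-fold (log2 fold change -2.57, SE 0.542; edgeR adjusted p = 0.0287), and without both DKO 41 and WT 32 its log2 fold change was -3.36 (adjusted p = 0.0647). With 1 library left out, the call held without DKO 41 and was lost otherwise (adjusted p up to 0.141).

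Per length, Dsc3 made up 0.734 ± 0.349% of desmocollin RNA from these 2 genes in DKO and 2.68 ± 1.16% in WT (SD, n = 3 each). The log2 ratio of Dsc3 to Dsc2 counts within a library was -7.14 ± 0.798 in DKO and -5.22 ± 0.602 in WT, a difference of -1.92 with no overlap of the groups. A two-sided exact permutation test gave p = 0.10, the smallest that 3 against 3 libraries allow, and 0.133 after adjustment over the 4 ratios tested. With 1 library left out the difference was between -2.22 and -1.46. The other cadherins of later stratified skin were low or at 0 counts. Dsg3, the partner of Dsc3 in basal layers, had 19 counts in DKO 17 and 0 in DKO 40 and DKO 41, against 39, 43 and 67 counts in WT 32, WT 53 and WT 56. It was not called (edgeR adjusted p = 0.117). Dsg1a, Dsg1b, Dsg1c and Dsc1 had 0 counts in the DKO libraries, which allows up to 0.012 CPM over the group, and at most 18 counts in any WT library. Dsg4 had 0 counts in all 6 libraries.

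Perp was the most abundant of the 10 genes. Its level per length in WT, 273.5 ± 23.4 CPM per kilobase of exon, was above that of 99.0% of tested genes. Perp (ENSMUSG00000019851.8, chromosome 10, 18845020 to 18857073) had 243.7, 207.7 and 368.0 CPM in DKO 17, DKO 40 and DKO 41. It had 515.7, 585.9 and 500.2 CPM in WT 32, WT 53 and WT 56. The groups did not overlap, and DKO 41 was the DKO library nearest to WT. Perp fell 1.95-fold (log2 fold change -0.97, SE 0.195; edgeR adjusted p = 0.0273). The call was lost without any 1 library other than DKO 41 (adjusted p up to 0.11).

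Epcam, which encodes an epithelial surface protein outside the desmosome, fell as well. It had 439, 383 and 437 CPM in the DKO libraries and 568, 635 and 626 CPM in the WT libraries (log2 fold change -0.54, SE 0.103; edgeR adjusted p = 0.0228), a call lost without DKO 40 or any 1 WT library (adjusted p up to 0.123). The log2 ratio of Perp to Epcam counts was -0.85, -0.88 and -0.25 in DKO 17, DKO 40 and DKO 41, against -0.14, -0.12 and -0.32 in WT 32, WT 53 and WT 56. DKO 41 lay above WT 56, so the groups overlapped. The difference was -0.47 (two-sided exact permutation p = 0.20, also after adjustment over the 4 ratios).

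The plakophilins differed most among themselves. Pkp1 is the plakophilin of stratified epithelia, and in humans its loss causes ectodermal dysplasia with fragile skin. Pkp1 (ENSMUSG00000026413.12, chromosome 1, 135871395 to 135919207) had 51, 5 and 19 counts in DKO 17, DKO 40 and DKO 41, or 0.612, 0.0653 and 0.213 CPM. It had 987, 481 and 955 counts in WT 32, WT 53 and WT 56, or 11.4, 7.59 and 10.9 CPM. Each DKO library was more than an order of magnitude below each WT library. The 95% Poisson intervals were 38.0 to 67.1 counts for DKO 17 and 439 to 526 counts for WT 53, the libraries nearest to each other. Pkp1 fell 33.6-fold (log2 fold change -5.06, SE 0.472; edgeR adjusted p = 0.000757), to 2.97% of its WT mean. Its log2 fold change was -6.11 without DKO 17 and -4.63 without DKO 40, and the highest adjusted p with 1 library left out was 0.00769.

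Among the DKO libraries, the level of Pkp1 was highest in DKO 17, lower in DKO 41 and lowest in DKO 40. Sp6 transcript stood in that order too. So did the ridge markers Fgf8, Sp8, Dlx1, Dlx2, Msx2, Bmp4 and Wnt5a. The ridge markers Fgf9, Fgf17, Sp9, Dlx5, Dlx6, Rspo2 and Cd44 did not, and Fgf4 had 0 counts in DKO. Fgf8 had 13.5, 0.930 and 0.261 CPM in DKO 17, DKO 41 and DKO 40, against 1180.4 CPM or more in each WT library. With 3 libraries this order is a description. It was not that of the other desmosome genes that fell. DKO 17 had the lowest level of Dsc3 in its group, and DKO 41 the highest of Dsc3, Dsc2 and Perp. Over the 10 genes, DKO 41 was the highest DKO library for 7 and DKO 40 the lowest for 7. DKO 41 also had the highest summed ectoderm markers of the DKO libraries, 3568 CPM, and the lowest summed mesenchyme markers, 876 CPM. The mesenchyme sum followed its largest marker, Msx1, at 1184, 799 and 536 CPM in DKO 17, DKO 40 and DKO 41. Prrx1 was lowest in DKO 17 instead, at 3.50 CPM beside 12.8 CPM in DKO 41. So were Twist1, Twist2, Tbx5, Pdgfra, Col1a1, Col3a1 and Fgf10. Prrx2 and Hand2 were lowest in DKO 41, and Meis2 in DKO 40.

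The other plakophilins were not called. Pkp2, the plakophilin of simple epithelia and heart (ENSMUSG00000041957.15, chromosome 16, 16213318 to 16272712), had 15.3, 10.1 and 6.52 CPM in DKO 17, DKO 40 and DKO 41. It had 6.34, 9.77 and 9.28 CPM in WT 32, WT 53 and WT 56. The groups overlapped, and the log2 fold change of 0.34 (SE 0.331; edgeR adjusted p = 0.671) became -0.03 without DKO 17. Pkp3, which both simple and stratified epithelia use (ENSMUSG00000054065.12, chromosome 7, 141078218 to 141090510), had 58.8, 46.2 and 76.7 CPM in the DKO libraries and 63.7, 60.7 and 68.3 CPM in the WT libraries. Its DKO libraries spread to both sides of the WT libraries, and the fitted change was -0.08 in log2 (SE 0.181; edgeR adjusted p = 0.862). Pkp4, also called p0071 and found at adherens junctions as well (ENSMUSG00000026991.20, chromosome 2, 59160850 to 59355208), had 39.6, 28.3 and 31.2 CPM in DKO and 33.7, 22.9 and 26.9 CPM in WT. These groups overlapped too (log2 fold change 0.24, SE 0.195; edgeR adjusted p = 0.586).

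Because the genes differ in length, the make-up of the family was compared as CPM per kilobase of exon. Pkp1 supplied 0.228 ± 0.21% of plakophilin RNA in DKO and 7.53 ± 1.13% in WT (SD, n = 3 each). Pkp3 supplied most of it in both groups, 67.7 ± 7.26% in DKO and 67.9 ± 2.23% in WT. Pkp4 supplied 23.8 ± 3.69% in DKO and 18.5 ± 2.88% in WT, and Pkp2 8.29 ± 3.47% in DKO and 6.08 ± 1.59% in WT. The family summed to 24.6 ± 4.37 CPM per kilobase in DKO and 26.2 ± 1.81 in WT, so the sums differed by less than the spread between the DKO libraries.

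Ratios within a library do not depend on its scaling. Those of Pkp1 to its relatives reuse the counts given above, so they restate its fall and are no separate result. The log2 ratio of Pkp1 to Pkp2 counts was -4.63, -7.14 and -4.90 in DKO 17, DKO 40 and DKO 41, against 0.85, -0.36 and 0.24 in WT 32, WT 53 and WT 56. The difference was -5.80, or -5.01 without DKO 40. The log2 ratio of Pkp1 to Pkp3 was -6.57, -9.33 and -8.46 in the DKO libraries, against -2.48, -2.998 and -2.64 in the WT libraries. The difference was -5.41, or -6.19 without DKO 17 and -4.81 without DKO 40. In both ratios the groups did not overlap, and the two-sided exact permutation p was 0.10, the smallest this design allows (0.133 after adjustment over the 4 ratios).

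**Figure D2:**
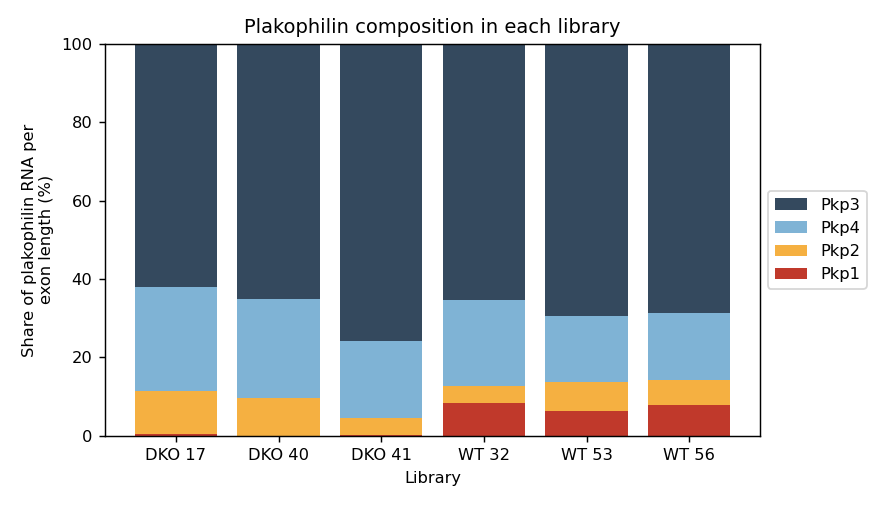
Share of plakophilin RNA (percent of the summed CPM per kilobase of exon of Pkp1, Pkp2, Pkp3 and Pkp4) in each library, DKO libraries on the left and WT libraries on the right. The Pkp1 share is 0.465% or less in each DKO library and 6.26% or more in each WT library, while Pkp3 is the largest share in all 6.

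Plakoglobin and desmoplakin, which desmosomes of every type need, were not called. Jup (ENSMUSG00000001552.14, chromosome 11, 100368958 to 100397763), which also serves in adherens junctions, had 201.8, 164.0 and 257.9 CPM in DKO 17, DKO 40 and DKO 41. It had 234.6, 223.1 and 274.1 CPM in WT 32, WT 53 and WT 56. DKO 41 lay above 2 of the 3 WT libraries, and the fitted log2 change was -0.23 (SE 0.168; edgeR adjusted p = 0.539). Dsp (ENSMUSG00000054889.10, chromosome 13, 38151294 to 38198577) had 37.7, 39.3 and 47.6 CPM in DKO, against 74.3, 43.2 and 70.0 CPM in WT. WT 53 lay within the DKO range, and the fitted log2 change was -0.59 (SE 0.209; edgeR adjusted p = 0.166). Without WT 53 it was -0.80 and was called (adjusted p = 0.0407). Exons of Dsp overlap the opposite-strand gene Gm10129 by 499 bases.

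SP factors are known to bind GC boxes, and Sp8 and Sp6 are members of that family. The promoters of Dsp and Jup are shown because they encode the plaque proteins common to desmosomes of every type. They come from RefSeq on build GRCm38.p6, each covering 250 bases before to 50 after a start site, and 3 of the 10 genes (Pkp4, Jup and Dsp) matched the table of promoters. The box GGGCGG, or CCGCCC on the other strand, is in capitals. It was found 4 times in the Dsp promoter and 2 times in the Jup promoter. Of the 2 Pkp4 promoters, 1 held it 6 times and the other 0 times. Of all 32851 promoters of that length, 35.7% held it at least once. A match of letters is a description and not evidence of binding.
Dsp promoter, chr13:38151044-38151343, plus strand: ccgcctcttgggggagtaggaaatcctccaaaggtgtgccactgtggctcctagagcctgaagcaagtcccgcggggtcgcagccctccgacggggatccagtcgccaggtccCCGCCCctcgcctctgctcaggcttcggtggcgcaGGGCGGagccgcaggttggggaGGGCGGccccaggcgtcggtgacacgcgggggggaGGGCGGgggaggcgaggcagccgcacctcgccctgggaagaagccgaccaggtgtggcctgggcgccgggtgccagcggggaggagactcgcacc
Jup promoter, chr11:100397741-100398040, minus strand: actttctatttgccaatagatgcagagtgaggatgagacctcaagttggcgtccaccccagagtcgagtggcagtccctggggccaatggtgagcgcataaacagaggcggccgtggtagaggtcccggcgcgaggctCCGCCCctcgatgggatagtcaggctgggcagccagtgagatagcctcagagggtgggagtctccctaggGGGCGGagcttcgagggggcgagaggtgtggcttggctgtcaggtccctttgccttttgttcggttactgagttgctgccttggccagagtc

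**Figure D3:**
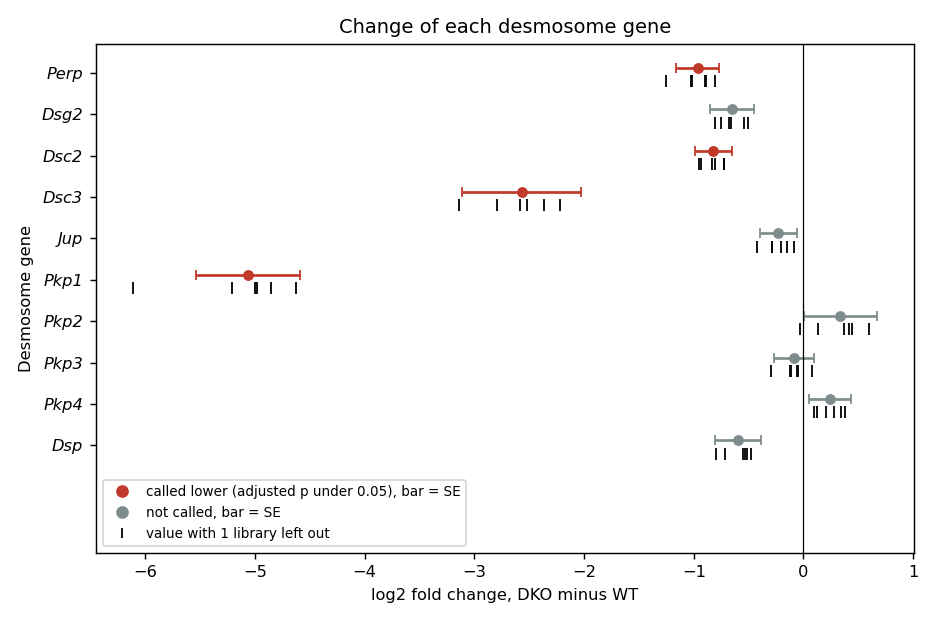
Log2 fold change (DKO minus WT) of each desmosome gene from edgeR with its SE (points and bars; red where called lower, grey where not called), and the values with 1 library left out (black ticks). Pkp1 at -5.06 and Dsc3 at -2.57 stand apart from the other 8 genes, which lie between -0.97 and 0.34.

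The order of levels per length was nearly the same in both groups. In DKO it ran from Perp (139.9 ± 43.1 CPM per kilobase) through Jup (32.3 ± 7.35), Pkp3 (16.7 ± 4.24), Dsc2 (5.81 ± 0.903), Pkp4 (5.79 ± 1.02), Dsp (4.30 ± 0.553), Dsg2 (3.28 ± 0.475), Pkp2 (1.99 ± 0.825) and Pkp1 (0.0591 ± 0.0563) to Dsc3 (0.0439 ± 0.0254). Neighbours whose DKO libraries overlapped were Dsc2 and Pkp4, Dsg2 and Pkp2, and Pkp1 and Dsc3. In WT, Perp (273.5 ± 23.4), Jup (37.9 ± 4.16), Pkp3 (17.8 ± 1.06) and Dsc2 (10.3 ± 1.56) also held the first places. Dsp (6.47 ± 1.75), Dsg2 (5.14 ± 1.13) and Pkp4 (4.88 ± 0.951) followed. Dsp overlapped Dsg2 and Dsg2 overlapped Pkp4, while Pkp4 lay above the next gene, Pkp1, with no overlap. Pkp1 (1.99 ± 0.415) and Pkp2 (1.58 ± 0.346) overlapped in WT, whereas in DKO Pkp1 lay below Pkp2 with no overlap. Dsc3 (0.273 ± 0.0816) was the lowest in WT too. The 10 genes summed to 210.2 ± 55.82 CPM per kilobase in DKO and 359.8 ± 14.34 in WT. Perp supplied 66.1 ± 2.84% of that sum in DKO and 75.9 ± 3.51% in WT.

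Genes with a profile most like that of Pkp1 were sought among 10059 named genes that reached 5 CPM in 1 of the groups, by the distance between centred log2 CPM over the 6 libraries. The closest was Gpx2, a glutathione peroxidase of epithelia (distance 0.751). Gpx2 had 3.24, 0.562 and 1.14 CPM in DKO 17, DKO 40 and DKO 41, against 88.3, 67.3 and 80.3 CPM in WT 32, WT 53 and WT 56. Next came Plcxd3, a gene of the phospholipase C X-domain family (1.26), Bhlha9, a helix-loop-helix factor of the limb ectoderm (1.45), the hyaluronan receptor Cd44 (1.53) and Cyp26a1, which degrades retinoic acid (1.71). Their log2 fold changes were -5.56 (SE 0.353) for Gpx2, -5.13 (SE 0.517) for Plcxd3, -4.07 (SE 0.931) for Bhlha9, -4.37 (SE 0.392) for Cd44 and -3.95 (SE 0.421) for Cyp26a1. All but Bhlha9 (edgeR adjusted p = 0.0802) were called, also with any 1 library left out. DKO 17 had the highest level of each in its group, and without it the log2 fold changes of Gpx2, Cd44 and Bhlha9 were -6.49, -5.49 and -5.89, with Bhlha9 called (adjusted p = 0.000747). These genes were chosen for their likeness to Pkp1 in the same 6 libraries. Their large falls and their peak in DKO 17 therefore follow from the choice and are no separate result.

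Other genes that build or line epithelial junctions were counted by list. In the list of 9 other desmosome genes, 3 were tested, 1 was lower and 0 higher, beside 2.81% and 1.7% of all tested genes. Evpl, which encodes the plakin envoplakin, had 4.69, 3.45 and 3.73 CPM in DKO 17, DKO 40 and DKO 41, against 12.2, 11.5 and 15.2 CPM in WT 32, WT 53 and WT 56. It fell 3.28-fold (log2 fold change -1.72, SE 0.240; edgeR adjusted p = 0.00596) and was called whichever 1 library was left out (adjusted p up to 0.0393). Without both DKO 41 and WT 32 it was not (adjusted p = 0.0581). Its plakin partner Ppl was at 28.3 ± 8.97 CPM in DKO and 37.9 ± 15.7 CPM in WT and was not called (edgeR adjusted p = 0.554).

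Of 15 genes of adherens junctions, the actin-linked junctions beside desmosomes, 4 were lower and 0 higher, against 2.81% and 1.7% of all tested genes. Their median log2 fold change was -0.25. N-cadherin, Cdh2, had 5.81, 6.58 and 3.54 CPM in the DKO libraries and 47.7, 42.9 and 58.8 CPM in the WT libraries, 9.38-fold lower (log2 fold change -3.25, SE 0.241; edgeR adjusted p = 0.000311). E-cadherin, Cdh1, had 125, 95.5 and 179 CPM in the DKO libraries and 270, 215 and 363 CPM in the WT libraries (log2 fold change -1.09, SE 0.249; adjusted p = 0.0437 by edgeR). Nectin4, a nectin whose loss in humans causes ectodermal dysplasia with fused digits, had a log2 fold change of -1.94 (SE 0.442; edgeR adjusted p = 0.0425), or -2.72 without DKO 41. That of the beta-catenin gene Ctnnb1 was -0.61 (SE 0.143; edgeR adjusted p = 0.0477), and its exons overlap Ulk4 by 759 bases. The call of Cdh2 held with 1 library left out, and those of the other 3 were lost in 4 or 5 of the 6 cases (adjusted p up to 0.197). Without both DKO 41 and WT 32 Cdh1 was not called (edgeR adjusted p = 0.0592). Cdh2, Nectin4 and Ctnnb1 were called in that fit (edgeR adjusted p = 0.00802, 0.0337 and 0.0439).

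Of 6 genes of hemidesmosomes, which fix epithelium to the basement membrane, 3 were lower and 0 higher, against 2.81% and 1.7% of all tested genes. Their median log2 fold change was -0.91. Both chains of the hemidesmosome integrin were lower, Itgb4 at 4.08 ± 1.39 CPM in DKO and 16.3 ± 0.393 CPM in WT and Itga6 at 36.0 ± 15.6 CPM in DKO and 93.3 ± 18.1 CPM in WT (edgeR adjusted p = 0.00455 and 0.0376). The collagen gene Col17a1 was at 1.51 ± 1.32 CPM in DKO, with 0 counts in DKO 40, and 14.9 ± 4.75 CPM in WT (edgeR adjusted p = 0.0112). The call of Itgb4 held with 1 library left out, that of Col17a1 was lost without WT 32 or WT 56 (adjusted p up to 0.0574), and that of Itga6 held without DKO 17 and was lost otherwise (adjusted p up to 0.164). Without both DKO 41 and WT 32 Itgb4 was called, and Col17a1 and Itga6 were not (adjusted p = 0.0776 and 0.147 by edgeR). Exons of Itgb4 overlap a non-coding gene by 537 bases.

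Among 8 keratins, whose filaments attach to desmosomes, 1 was lower and 2 were higher, against 2.81% and 1.7% of all tested genes. Their median log2 fold change was -0.48. Krt19 and Krt8, keratins of simple epithelia, had log2 fold changes of 1.43 (SE 0.201) and 0.47 (SE 0.0994; edgeR adjusted p = 0.00596 and 0.0315), and Krt17 of -1.89 (SE 0.372; edgeR adjusted p = 0.0246). With 1 library left out the call of Krt19 held, that of Krt8 held without DKO 17 and was lost otherwise, and that of Krt17 was lost in 4 of the 6 cases. Without both DKO 41 and WT 32 none of the 3 was called (edgeR adjusted p = 0.0665 for Krt19, 0.12 for Krt8 and 0.0583 for Krt17). Krt7 and Krt18, also keratins of simple epithelia, had negative log2 fold changes of -0.70 (SE 0.194) and -0.27 (SE 0.113) and were not called (edgeR adjusted p = 0.0844 and 0.253). Krt5, the keratin of basal layers, had 12.7, 8.09 and 64.9 CPM in DKO 17, DKO 40 and DKO 41, against 320, 254 and 363 CPM in WT 32, WT 53 and WT 56. The groups did not overlap, but it was not called (edgeR adjusted p = 0.0635). Krt14, its partner in basal layers, had a log2 fold change of -0.96 and Krt15, another basal keratin, of 0.87, and neither was called (edgeR adjusted p = 0.172 and 0.334). Trp63, which encodes p63, was at 184 ± 56.9 CPM in DKO and 304 ± 38.1 CPM in WT and was not called (edgeR adjusted p = 0.0915), although its groups did not overlap.

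**Figure D4:**
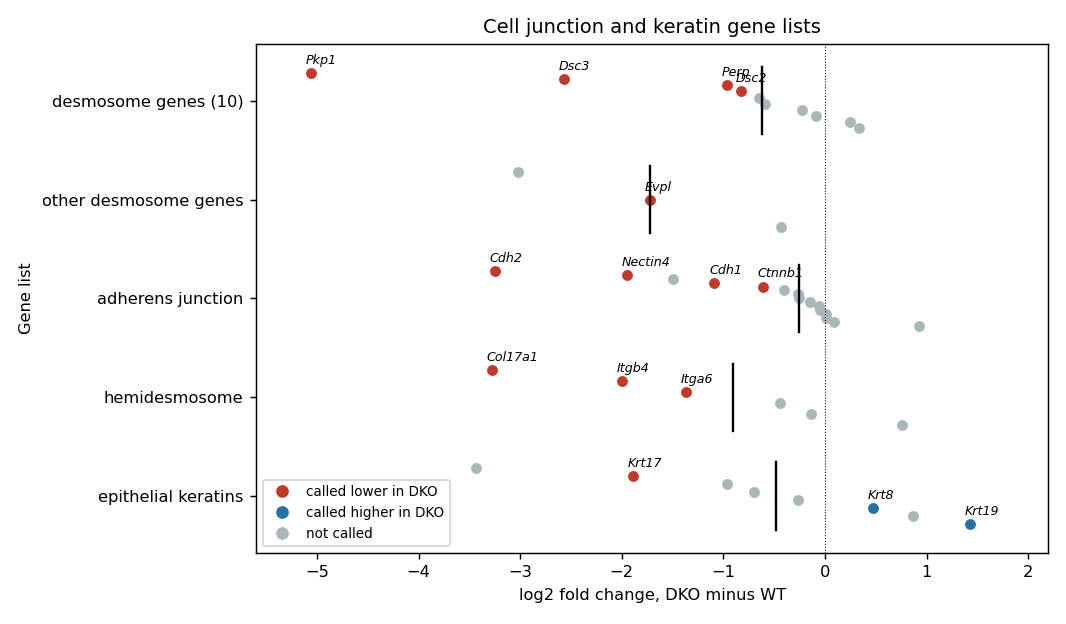
Log2 fold change (DKO minus WT) of the tested genes in 5 lists, 1 point per gene, red where called lower, blue where called higher and grey where not called; vertical bars are list medians. The median of the 10 desmosome genes is -0.62, that of 15 adherens junction genes -0.25 and that of 6 hemidesmosome genes -0.91.

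Markers of other cell types were also summed in each library. The 8 endothelial markers summed to 3.48 to 6.32 CPM in DKO and 1.80 to 2.999 CPM in WT, with Cdh5 at 0 in all 6 libraries. The 9 erythroid markers summed to 25.8 to 868 CPM in DKO and 0.59 to 297 CPM in WT. The 7 macrophage markers summed to at most 1.12 CPM in DKO and 0.363 CPM in WT, with Adgre1 and C1qa at 0 in all libraries. The 8 markers of neural crest and muscle progenitors summed to 41.7 to 47.7 CPM in DKO and 38.4 to 41.7 CPM in WT, with Foxd3 at 0 throughout. Of the 12 mesenchyme markers 1 was called higher (Meis2) and 1 lower (Pdgfra), beside 1.7% and 2.81% of all tested genes. Their log2 fold changes were positive in 9 and negative in 3, where 46.9% of all tested genes were negative. In 5 (Prrx2, Twist1, Twist2, Msx1 and Meis2) every DKO library lay above every WT library, and in 1 (Pdgfra) every DKO library lay below. Of all tested genes 10.6% and 11.3% did so. In each library 10 or more of the 12 had counts.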

How the data were processed

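Per the labels' protocols, forceps were used to take off the forelimb-bud ectoderm once it had been 20 min in 0.25% trypsin, and libraries were made with SMART-Seq v4 and Nextera XT kits. That chemistry is full-length, unstranded and without molecular identifiers. The deposited values are raw counts, whole numbers for each gene. The submitters' processing notes name HISAT2, StringTie, Cufflinks, DESeq2, fastp and FastQC with GRCm38 and mm10, without roles or versions. More genes had 1 count than 2 counts (1490 and 617 genes in DKO 17), which does not tell whether the lowest counts were rounded.

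The 6 columns carry no replicate number of the labels and were assigned by group name. Litters and embryos are not given per sample, so the p-values reflect only how far these samples spread, which may be technical. All 15 pairs of libraries differed by more than sampling noise (chi-square per degree of freedom of 54.6 or more). Tests used edgeR 4.0.16 in R 4.3.3 (filterByExpr, TMM, robust glmQLFit with legacy=FALSE, Benjamini-Hochberg adjustment). Each SE was derived as the absolute log2 fold change over the root of F. Counts were simulated for this comparison over 19126 genes at 64432348 to 87040786 reads. There, 50 of 50 genes with a log2 change of -2 and 27 of 50 with -1 were called. These rates are for the simulated counts only, and whether those spread between libraries as much as the measured counts was not tested. In the measured libraries Krt5 (log2 fold change -3.43), Dsg3 (-3.02) and Bhlha9 (-4.07) were not called, while Pkp1 (-5.06) and Dsc3 (-2.57) were. Lengths, positions and overlaps came from GENCODE M21. Ratios used counts plus 0.5 and scipy 1.17.1. Intervals and floors (3 counts) cover counting error only.

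The 10 genes, the lists and the tests were chosen with earlier results of these data known. Named are the 10 genes, Sp8, Sp6, Epcam, Cdh1, list genes that were called and the 5 genes most like Pkp1. Fgf8, Dsg3 and the other low cadherins, Ppl, Krt5, Krt7, Krt14, Krt15, Krt18, Trp63 and Prrx1 were added after their values were seen. So were Msx1, the other mesenchyme markers that were not called and the other ridge markers. The list of epithelial transcription factors holds a gene that is not reported here, and the list was therefore left out whole, whatever its counts; Trp63 is also an ectoderm marker. Alternatives were DESeq2 1.42.0, other scalings, no filter, legacy=TRUE and libraries left out.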

Additional observations from a re-analysis of the deposited data

How the results depend on the processing

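The number of desmosome genes called lower was 4 with DESeq2 size factors and with library totals alone, and 5 with DESeq2's Wald test. It was 1 without the filter on low counts and 1 with legacy=TRUE, the default of this edgeR version (Pkp1 in both), and 2 without both DKO 41 and WT 32. With 1 library left out it was between 1 and 4. The number called higher was 0 under each alternative. Over all tested genes, 538 were lower and 325 higher. These counts were 296 and 116 without the filter, 984 and 754 with DESeq2's Wald test, 346 and 200 with legacy=TRUE, and 282 and 95 without both libraries. With 1 library left out they ranged between 194 and 592 lower and between 53 and 332 higher. The adjusted p of Dsc2, Dsc3 and Perp was 0.0785, 0.0598 and 0.0741 without the filter and 0.0529, 0.0714 and 0.0562 with legacy=TRUE; the cause was not tested. The sign of the log2 fold change turned for Pkp2 without DKO 17 (-0.0278; range with 1 library left out -0.0278 to 0.596) and for Pkp3 without DKO 40 (0.076; range -0.300 to 0.076), and for no other of the 10 genes under any alternative. Pkp1 was called under each of the 12 alternatives. The 4 ratios kept their sign with a prior count of 2 and with libraries left out, between -6.26 and -5.01 for Pkp1 to Pkp2 and between -0.67 and -0.36 for Perp to Epcam. No paired analysis was possible because the columns carry no replicate number of the labels. Depth limits Pkp1 and Dsc3 in DKO most, where 1 library held as few as 5 and 9 counts.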
